A study of Mus musculus with 2 samples.

Results

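The constitutive proteasome subunits, their activators and their assembly factors were examined in 2 mouse mesoangioblast clones. Members were all probe sets of the deposited table whose platform annotation gives a single gene symbol that begins with Psma, Psmb, Psmc, Psmd, Psme, Psmf or Psmg, without the immunoproteasome genes Psmb8, Psmb9 and Psmb10. This rule found 55 probe sets of 43 genes among 12422 non-control probe sets with 8252 single gene symbols. Both groups are C57BL6 mouse cells from the dorsal aorta of embryos at embryonic day 9.5, which were kept as explants for 5 days and then cloned by limiting dilution on mitomycin-treated fibroblast feeders, with 20% fetal calf serum in the medium. The groups are clone D16 and clone D351, neither with a stated genotype change or treatment, and each is a single clone measured by 1 Affymetrix U74A array of total RNA. With 1 array per clone there was no test, standard error or p-value, and every difference below is a size measured between these arrays.

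The proteasome is the main protease of the cytosol and nucleus and degrades proteins that carry ubiquitin chains. Its core particle is a barrel of alpha and beta rings, with the proteolytic sites on the inner face of the beta rings. A regulatory particle caps the barrel: its base holds a ring of ATPases that unfold and thread the substrate, and its lid removes the ubiquitin chain. Alternative activators can take the place of the regulatory particle, and dedicated chaperones build the rings and the base. Proteasome subunit genes are known to be induced together through antioxidant response elements by the transcription factor encoded by Nfe2l1.

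The promoters of members are shown first, because these genes are known for shared control and their levels are compared below. RefSeq promoter sequences of mouse assembly GRCm38.p6, each 300 bases with 50 of them after the start, were matched by symbol for 36 of the 43 member genes (39 promoters), all but Psmb1, Psmb2, Psmb7, Psmc3, Psmd3, Psmd7 and Psmg2. The antioxidant response core TGACNNNGC, searched on both strands, was found in 6 of the 39 member promoters (15.4%), against 12.4% of all 32851 promoters in the table and 14.0% of the 6345 promoters of genes above the intensity floor in these arrays. The ETS core CCGGAAG was found in 17 of the 39 (43.6%), against 8.86% of all promoters and 17.1% of those 6345. The Sp-family core GGGCGG was found in 56.4% of member promoters, against 35.7% of all and 61.7% of those 6345. The letters CCAAT were in 35.9% of member promoters, 37.4% of all and 37.5% of those 6345, and TATAAA was in 7.69%, 13.6% and 8.21%. A match is a description of letters and does not show a bound site.

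The following are the 250 bases before the start for both catalytic subunit genes that hold TGACNNNGC (Psmb5 and Psmb6) and for a gene each of the base, the lid, the activators and the assembly chaperones that hold CCGGAAG (Psmc1, Psmd6, Psme3 and Psmg1). Each is written 5′ to 3′ on the strand of its gene, and the capitals mark the motif on either strand. Positions are chr14:54617996-54618245 (minus strand) for Psmb5, chr11:70525107-70525356 (plus) for Psmb6, chr12:100109952-100110201 (plus) for Psmc1, chr14:14120946-14121195 (minus) for Psmd6, chr11:101315963-101316212 (plus) for Psme3 and chr16:95990961-95991210 (minus) for Psmg1. None of the marked motifs overlaps another motif searched here.
Psmb5: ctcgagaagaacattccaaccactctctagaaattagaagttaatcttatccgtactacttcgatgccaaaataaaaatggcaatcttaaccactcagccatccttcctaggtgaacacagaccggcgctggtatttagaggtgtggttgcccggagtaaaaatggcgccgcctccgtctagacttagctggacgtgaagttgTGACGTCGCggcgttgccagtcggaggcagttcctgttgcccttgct
Psmb6: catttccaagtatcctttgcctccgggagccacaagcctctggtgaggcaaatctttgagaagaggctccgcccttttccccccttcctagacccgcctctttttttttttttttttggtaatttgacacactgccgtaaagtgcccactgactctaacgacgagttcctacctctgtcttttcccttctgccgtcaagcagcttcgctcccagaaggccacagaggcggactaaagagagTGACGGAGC
Psmc1: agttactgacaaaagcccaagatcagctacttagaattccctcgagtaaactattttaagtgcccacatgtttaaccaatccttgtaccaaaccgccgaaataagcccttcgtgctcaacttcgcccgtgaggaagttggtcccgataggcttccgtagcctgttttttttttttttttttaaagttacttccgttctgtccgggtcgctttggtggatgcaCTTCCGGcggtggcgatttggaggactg
Psmd6: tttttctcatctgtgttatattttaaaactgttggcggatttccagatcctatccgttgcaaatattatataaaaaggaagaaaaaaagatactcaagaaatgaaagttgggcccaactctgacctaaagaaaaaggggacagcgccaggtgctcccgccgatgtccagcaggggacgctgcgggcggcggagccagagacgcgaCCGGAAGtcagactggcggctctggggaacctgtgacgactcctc
Psme3: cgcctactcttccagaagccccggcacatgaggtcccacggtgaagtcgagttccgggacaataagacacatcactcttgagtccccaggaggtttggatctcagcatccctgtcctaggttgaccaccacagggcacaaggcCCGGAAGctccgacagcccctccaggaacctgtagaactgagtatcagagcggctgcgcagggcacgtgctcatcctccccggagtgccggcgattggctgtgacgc
Psmg1: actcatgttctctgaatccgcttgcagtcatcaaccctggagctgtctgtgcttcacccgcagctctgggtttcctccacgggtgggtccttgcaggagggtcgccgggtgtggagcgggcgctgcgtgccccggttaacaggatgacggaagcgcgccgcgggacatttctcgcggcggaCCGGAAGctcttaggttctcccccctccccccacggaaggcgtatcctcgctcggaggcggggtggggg
In Psmb5 the motif lay 47 to 39 bases before the start and in Psmb6 directly before it, from 9 to 1 bases. In Psmc1, Psmd6 and Psmg1 the CCGGAAG match lay within 69 bases of the start, while in Psme3 it began 107 bases before it, with another match after the start and so outside the bases shown.

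The arrays were scaled to a common median, so a likeness in total brightness was set in advance and was not tested. In the deposited values the 9 hybridization controls were dimmer in D351 than in D16, by their median at -0.44 on the log2 scale. The intensity floor of 17.4 was the 40th percentile of the scaled values, and 7537 probe sets of D16 and 7369 of D351 reached it. Of the labelled cell type's fixed markers, the mesenchymal genes Thy1, Pdgfra, Pdgfrb and Acta2 were above the floor in both clones, Cd34 in D16 alone, and Kit and Kdr in neither. All 5 fibroblast markers (Col1a1, Col1a2, Dcn, Lum and S100a4) were above the floor in both, with a summed level of 5528 in D16 and 8382 in D351. S100a4 went against that sum, at 1835 in D16 and 414 in D351, while Col1a1 measured 1539 and 3770 and Col1a2 1694 and 3436. Of the 3 endothelial markers Pecam1 alone was above the floor, in both clones, and of the 3 blood markers Cd68 alone, in D351. The 3′ control probe set of Actb was brighter than the 5′ one by a ratio of 1.81 in D16 and 1.37 in D351, and for Gapdh the ratios were 1.56 and 1.44. The part of these marker and 3′ to 5′ differences in the results was not tested.

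Proteasome genes had similar levels in both clones, with a small shift of most of them toward D16 that turned toward D351 when the arrays were scaled on their hybridization controls. Of the 55 member probe sets, 48 (41 genes) reached the floor in both clones, 0 in a single clone, and 7 in neither. Past 2-fold were 1 toward D16 (Psmg2) and 1 toward D351 (Psmd10). The background is all 8151 probe sets that reached the floor in either clone: 18.6% of these were past 2-fold, 8.66% toward D16 and 9.94% toward D351. The median log2 ratio of D351 over D16 was -0.15 over the 48, against -0.04 over the 8151, and 33 of the 48 (68.8%) lay below 0, against 52.6%.

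At a lower size of 1.5-fold, 8 of the 48 were higher in D16, where 20.7% of all probe sets were, and 2 were higher in D351, where 20.2% were. The 8 were probe sets of Psmg2, Psma1, Psmb5, Psmd5, Psmc3ip, Psmb1, Psmg4 and Psmg1, and the 2 were those of Psmd10 and Psme4. Psmc3ip was taken in by its symbol and encodes a meiotic recombination factor. Within 1.5-fold lay 79.2% of the members and 59.1% of all probe sets. The SD of the log2 ratios was 0.39 over the members and 0.87 over all. Over the 3574 probe sets with a mean level of 100 or more the SD was also 0.88, and over the 43 members in that range it was 0.35.

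The measurable part of the error is the disagreement between probe sets of the same gene, an SD of 0.52 on the log2 ratio over 806 genes. Over the 264 genes with probe sets at a mean level of 100 or more, where most members lie, it was smaller, at 0.42. Of the 48 members, 37 (77.1%) had a log2 ratio smaller in size than 0.52, against 53.9% of all probe sets. Beyond 2 SDs of 0.52 lay 1, Psmg2. The SD was 0.29 over the 5 member genes with several probe sets above the floor (12 probe sets). A spread between cultures of a clone was not measured, and in bulk RNA a lower level per cell cannot be told apart from fewer expressing cells. Of the 48 probe sets, 11 have a suffix other than the plain one and can match further transcripts.

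**Figure D1:**
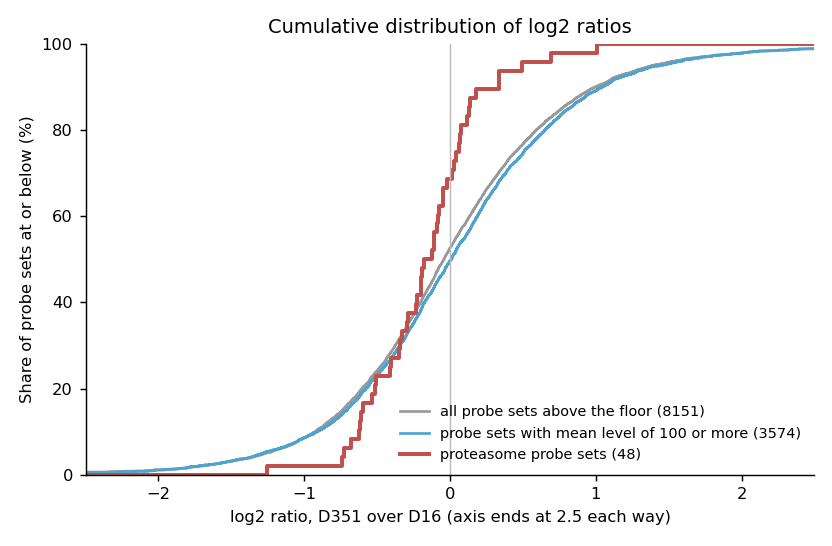
Share of probe sets at or below each log2 ratio of D351 over D16, for the 48 member probe sets (proteasome curve), all 8151 probe sets above the floor, and the 3574 with a mean level of 100 or more. The proteasome curve is steeper, with 79.2% of its probe sets within 1.5-fold, and crosses 0 at 68.8%.

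The alpha ring forms the outer rings of the core, which gate the entrance to the barrel. All 7 alpha subunit genes on the array were above the floor, with a median log2 ratio of -0.08. Psma1 was the exception in size, at a level of 194 in D16 and 116 in D351 (1.67-fold higher in D16). Psma6 measured 1358 in D16 and 1158 in D351, and Psma3, by a probe set of the type that can match other transcripts (suffix f), 1551 and 1368. These 3 were higher in D16 by different amounts.

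The other alpha subunits lay close to 0. Psma2 measured 1140 in D16 and 1200 in D351, Psma4 615 and 668, Psma5 462 and 476, and Psma7 556 and 525. Their folds ran between 1.03 and 1.09, and 3 of these 4 were higher in D351.

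The beta ring carries the catalytic subunits, encoded by Psmb5 (chymotrypsin-like activity), Psmb6 (caspase-like) and Psmb7 (trypsin-like). Its 9 probe sets above the floor, of 12 on the array, had a median log2 ratio of -0.23, with 7 below 0. Psmb5 measured 662 in D16 and 654 in D351 by its brighter probe set, and Psmb6 measured 575 and 628. These genes were within 1.1-fold between the clones. A second, dim Psmb5 probe set measured 37.5 and 22.6 and so disagreed by 0.71 on the log2 scale. Psmb7 measured 595 in D16 and 488 in D351 (1.22-fold higher in D16).

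The structural beta subunits divided. Psmb1 was higher in D16 by both of its probe sets above the floor, at 720 and 614 by the one with the slightly higher mean level (1.17-fold), and at 806 and 526 by the other (1.53-fold). Psmb4 measured 1369 in D16 and 1036 in D351 by a suffix f probe set, 1.32-fold higher in D16. Psmb3 measured 1166 and 1021. Psmb2 went the other way, at 322 in D16 and 407 in D351 (1.26-fold higher in D351). Another Psmb1 probe set and 2 of Psmb4 did not reach the floor in either clone.

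The base ATPases form the ring that unfolds substrates. They showed the narrowest range of the parts with more than 3 probe sets: 7 probe sets of 5 genes had log2 ratios from -0.30 to 0.01, with a median of -0.12. Psmc1 measured 350 in D16 and 354 in D351, Psmc2 755 and 659, and Psmc6 1089 and 1000. Psmc5 measured 296 in D16 and 241 in D351, the largest difference of the ring (1.23-fold higher in D16). The 3 probe sets of Psmc3 gave log2 ratios from -0.20 to -0.05, and the brightest measured 337 and 327.

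Psmc4, the remaining ATPase gene, had a single probe set, which did not reach the floor in either clone (2.26 in D16 and 13.2 in D351). A second Psmc5 probe set was also below it. The scaffold subunit gene Psmd2 was below the floor as well, at 11.0 and 3.05 by its only probe set. Both genes encode obligate subunits of the base, so their probe sets, and not the genes, are described by these values, and no ratio is given. The annotation is of version 2 of the array and the labels give none, so the gene of a probe set was not checked. The other base genes were measured. Psmd1, the second large scaffold subunit, measured 724 in D16 and 498 in D351 (1.45-fold higher in D16). Psmd4, which encodes a ubiquitin receptor between base and lid, measured 741 and 686.

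The lid holds the deubiquitinating enzyme, encoded by Psmd14, and its scaffold. All 8 lid genes that the rule found were above the floor (10 probe sets), with a median log2 ratio of -0.06, from -0.51 to 0.33. Lid genes whose symbol does not match the rule are not among them. Psmd14 measured 397 in D16 and 312 in D351 (1.27-fold higher in D16), while its dimer partner Psmd7 measured 921 and 890. Psmd13 measured 251 and 176, and Psmd8 419 and 316, which is 1.42-fold and 1.33-fold toward D16.

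The remaining lid genes were level or higher in D351. Psmd3 measured 274 in D16 and 346 in D351 (1.26-fold higher in D351). Psmd6 measured 620 and 575, and Psmd12, by a suffix f probe set, 312 and 327. The 3 probe sets of Psmd11 gave log2 ratios from -0.07 to 0.14, and the brightest measured 679 and 748. No lid probe set reached 1.5-fold in either direction.

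**Figure D2:**
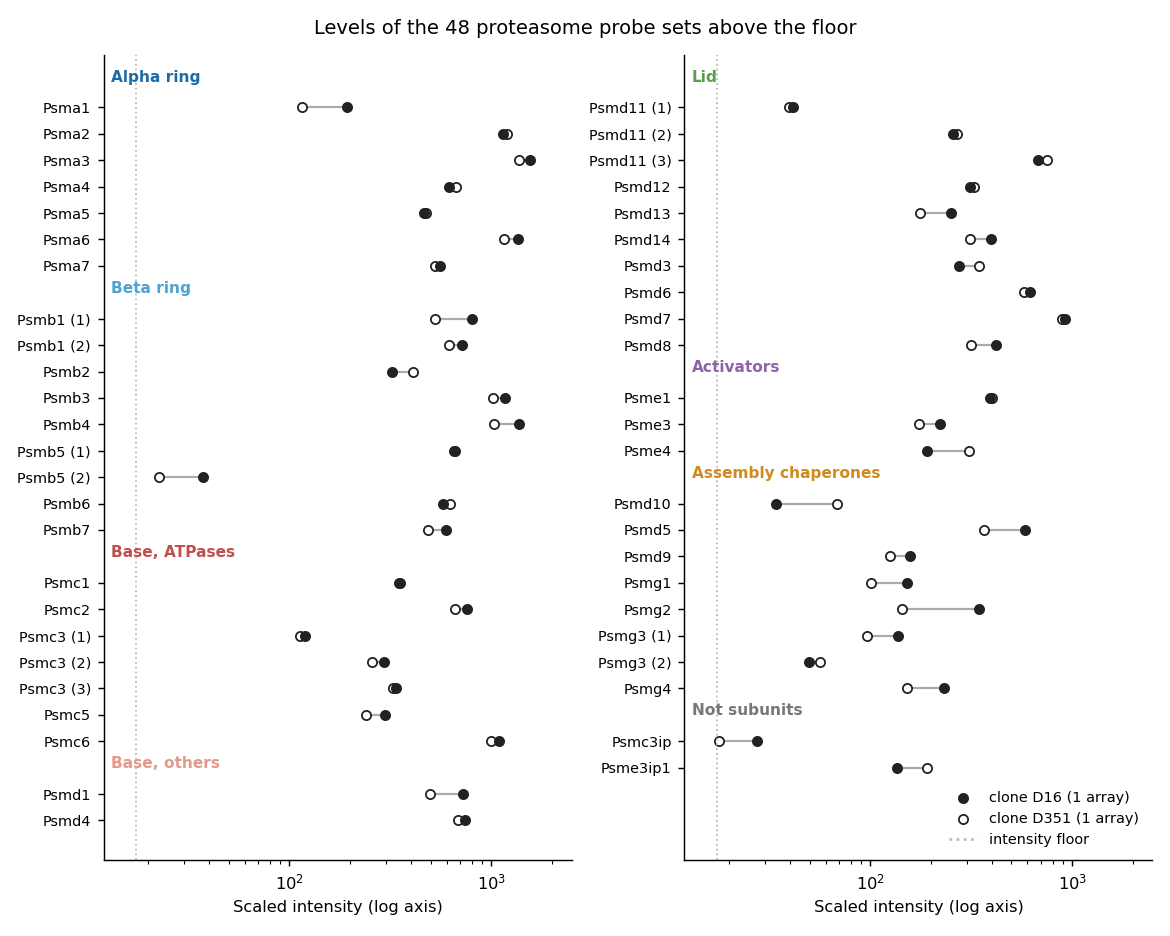
Scaled intensity on a log axis of the 48 member probe sets above the floor in clone D16 (filled) and clone D351 (open), 1 array each, grouped by part of the complex, with numbers after genes that have several probe sets. Those of Psmc3ip and Psme3ip1 encode no subunit and form a group of their own. The points of most rows nearly touch, and Psmg2 (344 and 144) and Psmd10 (34.0 and 68.3) are the widest apart. Positions of different rows should not be compared, since probe sets differ in affinity.

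Activators differed from each other in direction. Psme4, which encodes a large monomeric activator that acts in the nucleus, measured 192 in D16 and 309 in D351 and was 1.61-fold higher in D351. Psme3, which encodes the nuclear homomeric activator, measured 222 and 175, or 1.27-fold higher in D16. Psme1, an interferon-inducible subunit of the heteromeric activator, was level at 394 and 401 by its brighter probe set, with its other probe set below the floor. Their median log2 ratio was 0.02 over 3 probe sets, and it lay below 0 as deposited (-0.03), by quantiles (-0.08) and by loess (-0.02). The partner gene of Psme1 lay outside the rule and this median, since its probe sets carry the symbols of both Psme2 and Psme2b. Its brighter probe set, named after its value was seen, measured 313 in D16 and 213 in D351 (1.46-fold higher in D16). Its other probe set was below the floor in both clones. The rule found no probe set for a symbol beginning with Psmf.

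Assembly chaperones that the rule found held the widest differences of the parts. Their 8 probe sets (7 genes) had a median log2 ratio of -0.56, with 6 below 0, against 52.6% of all probe sets. Assembly factor genes whose symbol does not match the rule are not among them. Pomp, such a gene that was named after its value was seen, was 1.90-fold higher in D351. At 1.5-fold 4 of the 8 were higher in D16, against 20.7% of all probe sets, and 1 was higher in D351, against 20.2%. Psmg2, a chaperone of alpha ring assembly, measured 344 in D16 and 144 in D351 and was 2.39-fold higher in D16. Psmg1, the partner of Psmg2 in a heterodimer, measured 153 and 101 (1.51-fold higher in D16). Both genes of this dimer were thus higher in D16.

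The second chaperone dimer of the alpha ring is encoded by Psmg3 and Psmg4. Psmg4 measured 231 in D16 and 151 in D351 (1.52-fold higher in D16). Psmg3 measured 137 and 95.8 by its brighter probe set (suffix r) and 49.6 and 56.3 by the other, so that its probe sets disagreed in direction. Its direction is therefore unsettled.

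The base has its own chaperones, encoded by Psmd5, Psmd9 and Psmd10. Psmd5 measured 583 in D16 and 364 in D351 (1.60-fold higher in D16), and Psmd9, by a suffix r probe set, 156 and 125. Psmd10, also known as the oncoprotein gankyrin, measured 34.0 and 68.3, a log2 ratio of 1.01. It went the opposite way to the other base chaperones, and its D16 level was near the floor. With the values as deposited its log2 ratio was 0.96, below 2-fold.

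Core, base, lid and activators thus had median log2 ratios of -0.19 (16 probe sets), -0.12 (9), -0.06 (10) and 0.02 (3), against -0.56 for the chaperones (8). The rule also took in genes that encode no subunit. Psmc3ip, a meiotic recombination factor, measured 27.3 and 17.7, with the D351 level just above the floor, and Psme3ip1, which encodes a protein that binds the Psme3 product, measured 136 and 192. Without their probe sets the median over the remaining 46 was -0.15 as well.

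**Figure D3:**
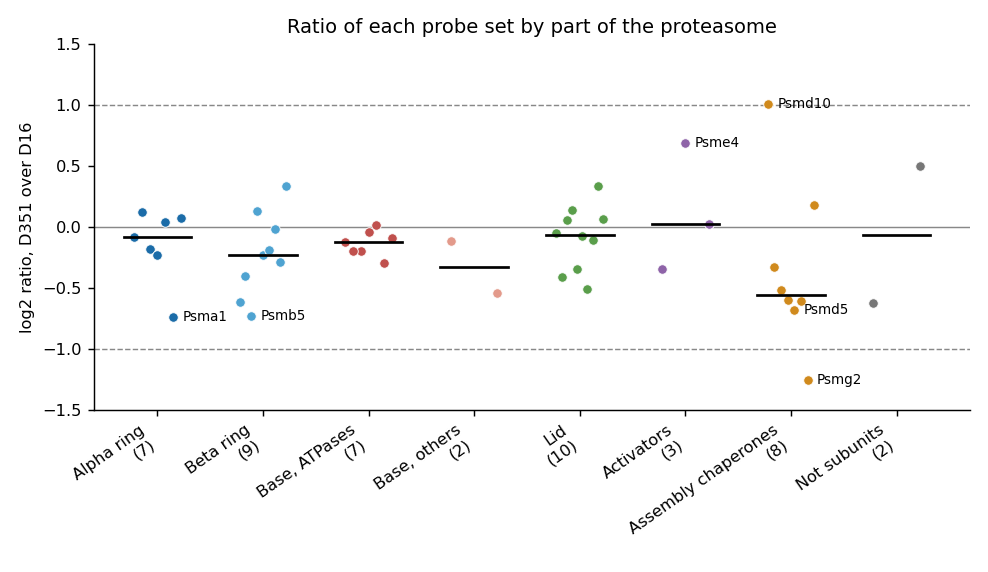
Log2 ratio of D351 over D16 for each member probe set above the floor (points), by part of the complex or as no subunit, with the number of probe sets in brackets, the median of each group as a black bar and dashed lines at 2-fold. Medians run from 0.02 for the activators to -0.56 for the assembly chaperones, and Psmg2 and Psmd10 alone pass a dashed line.

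The level of the shift depended on how the arrays were scaled, while the order of chaperones below the other parts did not. As deposited and with the control scaling, log2 ratios move by nearly the same amount. The order of the parts was therefore nearly fixed in advance under these settings. Scaled as deposited, by quantiles or by loess, 36 of the 48 members (75%) lay below 0, with medians from -0.20 to -0.13. Of all probe sets, 55.2% lay below 0 as deposited, 52.1% by quantiles and 50.4% by loess. Scaled on the 9 hybridization control probe sets, the median of all probe sets moved to 0.32, a shift of over 0.1, and the members' median to 0.21, with 36 of 49 above 0. Below 0 were then 26.5% of the members and 30.8% of all probe sets, where the main scaling had 68.8% and 52.6%. The members' median was below that of all probe sets by 0.11 to 0.16 under the 5 scalings. The direction of the members against 0 therefore flips with the control scaling, except for the chaperones, whose median was -0.16 there, and Psmg2 had a log2 ratio of -0.86 and no longer passed 2-fold. Under that scaling each log2 ratio measured in both clones was 0.39 higher, so members that are described here as higher in D16 by less than 1.31-fold were higher in D351 there.

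**Figure D4:**
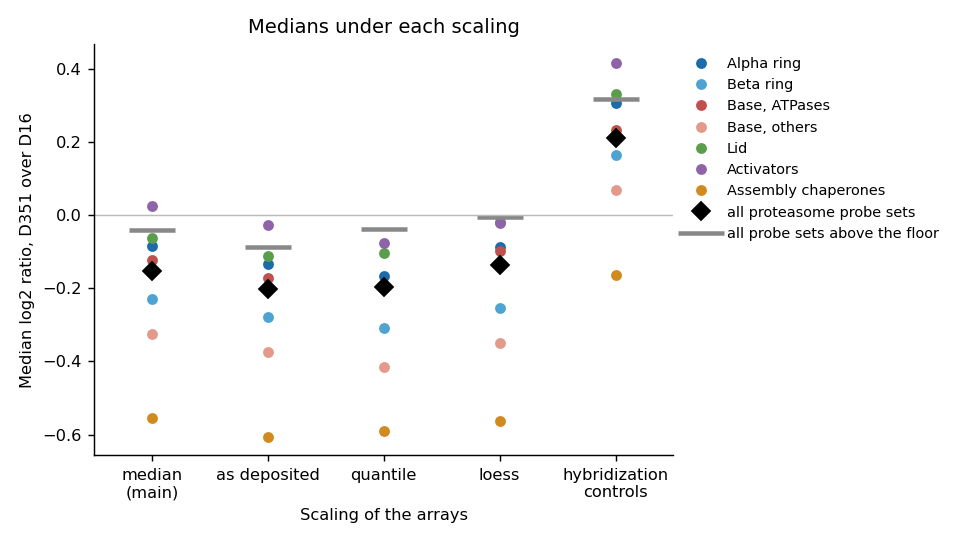
Median log2 ratio of D351 over D16 under each of 5 scalings of the arrays, for the parts of the proteasome (circles), all member probe sets (diamonds, the proteasome median) and all probe sets above the floor (grey bars). The proteasome median lies below the grey bar in each column, by 0.11 to 0.16, and the control scaling lifts it from -0.15 to 0.21.

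The immunoproteasome genes replace the catalytic subunits when cells meet interferon, and here they differed in direction. Psmb8, the counterpart of Psmb5, measured 3.34 in D16, under the floor, and 75.1 in D351, a difference of at least 4.32-fold. Psmb9, the counterpart of Psmb6, went the other way at 73.2 and 38.0 (1.92-fold higher in D16). Psmb10, the counterpart of Psmb7, measured 178 and 185. The difference in spread between these gene sets was not tested.

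**Figure D5:**
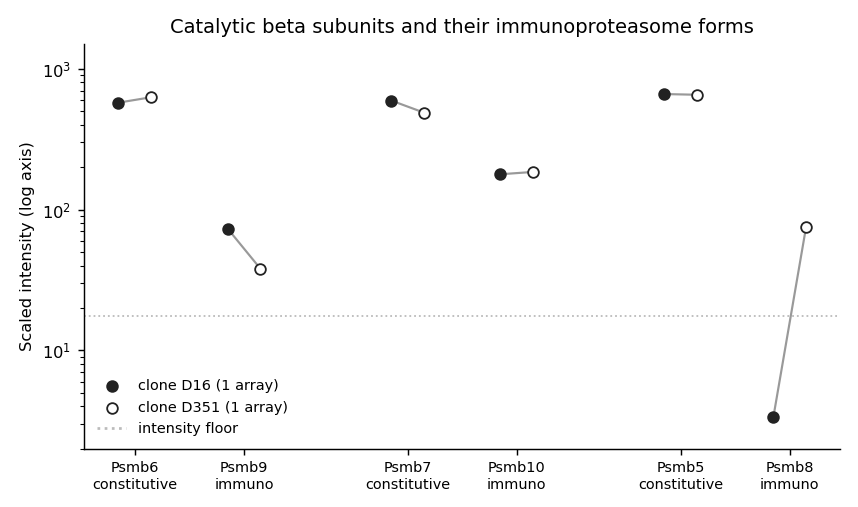
Scaled intensity on a log axis of the 3 constitutive catalytic beta subunit genes, each beside its immunoproteasome form, in clone D16 (filled) and clone D351 (open), 1 array each, by the brightest probe set. The constitutive genes are nearly level, while Psmb8 goes from below the floor line in D16 to 75.1 in D351 and Psmb9 from 73.2 to 38.0; heights of different genes should not be compared.

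Partners and regulators of the proteasome included larger differences. Of 26 listed symbols, some of them older names, 16 were on the array, all above the floor in at least 1 clone, with 2 past 2-fold in each direction, and a median log2 ratio of 0.06. Among all 6102 genes above the floor, by the brightest probe set, 8.87% were past 2-fold toward D16 and 10.6% toward D351. The ubiquitin shuttle genes differed in direction: Rad23b measured 477 in D16 and 233 in D351 (2.05-fold higher in D16), and Ubqln2 reached the floor in D351 alone, at 140 (at least 8.05-fold higher in D351). Ecpas, which encodes a proteasome-binding scaffold, was 2.02-fold higher in D16, at 199 and 98.6, and Zfand5, which encodes a zinc finger protein that binds the proteasome, 2.29-fold higher in D351, at 160 and 367.

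Named after their values were seen are 3 more genes of this list. Nfe2l1, the transcription factor gene named above, measured 226 in D16 and 342 in D351 (1.52-fold higher in D351), and Nfe2l2, its paralogue in the oxidative stress response, 283 and 186 (1.52-fold higher in D16). Pomp, which encodes the maturation factor of the core, measured 303 and 575 (1.90-fold higher in D351), in contrast to Psmg1, Psmg2 and Psmg4.

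Complexes built on a plan like that of the lid gave a further comparison. The COP9 signalosome, which removes the ubiquitin-like modifier from cullins, had all 9 listed genes measured and a median log2 ratio of 0.06. Past 2-fold were 0 of the 9, where 8.87% of all genes were past it toward D16 and 10.6% toward D351. The translation initiation factor complex eIF3 had 10 of 13 listed genes measured and a median of -0.38, with Eif3c 2.16-fold higher in D16 (2072 and 957). These medians are by the brightest probe set of each gene. On that unit the median of the 8 lid genes was -0.08 and lay between them (-0.06 over the 10 lid probe sets). The differences between the complexes were not tested, since each rests on the same 2 arrays.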

How the data were processed

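Each clone's total RNA was hybridised to 1 Affymetrix array. Intensity values of a linear scale, 1 for each probe set, were deposited by the authors. How they were background-corrected and summarised is not given in the sources used here. Both arrays had a 2%-trimmed mean of 100.1, so they were probably scaled before deposit. Genes were named through a platform annotation made for array version 2, whereas the labels name no version; this was not checked and bears on which gene a probe set measures (10833 probe sets with a single symbol, 396 with several, 1193 with none), updated to RefSeq for genes outside the rule. The arrays were scaled to a common median log2 level (factors 0.983 for D16 and 1.02 for D351), values below the floor of 17.4 were set to it, and D351 was divided by D16 for the log2 ratio. Where a single clone was under the floor the ratio is a bound, and where both were there is none. All tested counts are past-size counts without replicates, and the number of arrays limits the precision. The functions were tested on simulated arrays. The members and lists were chosen with earlier results of these data known. All member genes are named; of other genes, those of the listed pathways at least 2-fold apart and the immunoproteasome genes, unless marked. Some listed genes are not reported here. Alternatives covered scaling, floor, probe set choice, symbol source and threshold. Python 3.11.15, numpy 2.4.6, pandas 2.3.3, scipy 1.17.1, statsmodels 0.14.6 and matplotlib 3.10.9 were used.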

Additional observations from a re-analysis of the deposited data

How the results depend on the processing

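No paired analysis was possible because there was 1 array per clone, which also left no replicate to omit. Of 134 comparisons of the members' counts and medians with an alternative setting, 116 stayed within set limits and 18 moved. For a count the limit was 1.5 times. For a median it was the probe set SD of 0.52 divided by the square root of its number of probe sets. That limit is a convention and not a standard error, since probe sets of the same arrays are not independent, and it is narrower for longer lists. Some comparisons could hardly move: updated symbols changed no value, and as deposited the log2 ratios shifted by a small, nearly equal amount. The 116 therefore do not measure stability. Scaling on the hybridization controls moved all medians: to 0.21 for all members, 0.31 for the alpha ring, 0.16 for the beta ring, 0.23 for the base ATPases, 0.069 for the other base subunits, 0.33 for the lid, 0.42 for the activators and -0.16 for the chaperones. With it, 0 of 49 members were at least 2-fold higher in D16, against 331 of all 8152 probe sets. Higher in D351 were 2 (Psmd10 and Psme4), against 1534 of the 8152, and 13 of 49 lay below 0. The count higher in D351 was 0 as deposited, with the floor at the 60th percentile and with a pseudocount of 20, since Psmd10 then missed 2-fold. As deposited, 755 of all 8155 probe sets were higher in D351. Without a floor, 2 members were higher in each direction, of all 55. This adds the probe sets of Psmd2 and Psmc4, which were below the floor in both clones and for which no ratio is given above. For the 60th percentile floor, the pseudocount and no floor, the share of all probe sets past 2-fold is not given. The counts under these settings are therefore not read as a result about the members. At 1.5-fold, 8 of 48 were higher in D16, against 20.7% of all probe sets, and 2 in D351, against 20.2%. Quantile and loess scaling, the floor at the 25th percentile, 1 value per gene, probe sets with the plain suffix alone and updated symbols left the members' counts and medians within those limits. Signal near the floor limits Psmd10, Psmc3ip, and the dim probe sets of Psmb5 and Psmd11.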

Other observations

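Ubiquitin-conjugating enzymes, which load ubiquitin onto substrates ahead of the proteasome, had a positive median log2 ratio of D351 over D16 in the main scaling, where the proteasome genes had a negative one. Of 26 listed symbols of ubiquitin activation and conjugation, 18 reached the floor in at least 1 clone (17 in both, and Ube2e3 in D351 alone), with a median log2 ratio of 0.26, and 13 of the 18 (72.2%) lay above 0, against 48.4% of all genes. Ube2b, a conjugating enzyme of DNA damage tolerance, was 2.80-fold higher in D351, at 101 in D16 and 283 in D351, and was the only gene of this list at least 2-fold apart by its brightest probe set. At 1.5-fold, 4 of the 18 (22.2%) were higher in D351, Ube2e3 among them as a bound, against 21.1% of all genes, and 0 were higher in D16, against 21.0%. The direction was not tested, and each value rests on 1 array per clone.

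The 43 member genes lie on 16 chromosomes in RefSeq, with at most 9 on the same chromosome.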
